A study of Mus musculus with 16 samples.

Results

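The comparison described here is M1-like against unpolarized (M0) bone marrow–derived macrophages (BMDMs), both cultured with VLX-1005, an inhibitor of the enzyme 12-lipoxygenase. Its members were the 4 M1 VLX-1005 and the 4 M0 VLX-1005 libraries, 8 of the 16 libraries of the series, taken by their labels. The BMDMs came from 8-week-old female NOD.hALOX12 mice, a diabetes-prone strain in which human ALOX12 replaces the coding region of mouse Alox15, and all groups carry this replacement. Marrow cells were grown for 7 days in 10 ng/mL M-CSF and pretreated for 1 hour with 10 µM VLX-1005 or, in the other 8 libraries, with vehicle (0.1% DMSO). M1 cells were then stimulated with LPS at 10 ng/mL together with IFN-γ at 25 ng/mL, over 18 hours in one source used here and 24 hours in another. Whether each of the 4 libraries of a group had its own mouse is not stated, and the p-values therefore measure the spread between these libraries only, which may be technical. In bulk RNA, fewer cells of a type and less RNA per cell cannot be told apart.

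LPS is sensed by Toll-like receptor 4, which signals through NF-κB to cytokine genes and through IRF3 to type I interferon. IFN-γ signals through JAK kinases to genes with a GAS element, and type I interferon to genes with an ISRE. Together they drive macrophages toward antigen presentation, nitric oxide production and glycolysis, and away from the scavenger receptors of resting macrophages.

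The deposited values were counts per gene, and each gene is called a row. Libraries held 939584 to 1158095 counts. Of 48440 rows, 8460 had exons overlapped by an exon of an opposite-strand gene, and these held 96.4% to 97.2% of the counts of each VLX-1005 library. The own rows of 32 abundant transcripts, such as Actb and Gapdh, held 0.0661% to 0.109% of counts per library, and the rows opposite to those transcripts held 12.0% to 16.6%. Mitochondrial counts lay 90.3% to 95.1% on the minus strand. The sources used here do not give the strand setting of the counting, so reads of a gene and of its opposite-strand partner cannot be told apart. Each row is therefore described with its partner, written as row/opposite gene (Art3/Cxcl10), and levels are in CPM, counts scaled to library size, after TMM normalization.

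The M1 transition changed most rows that could be tested. Of 3453 rows, 1088 rose and 1166 fell from M0 to M1 under VLX-1005 (adjusted p under 0.05, edgeR's quasi-likelihood test), which is 31.5% and 33.8% of the rows tested and 65.3% together. With a fold change over 2 in addition, 664 rows rose (19.2%) and 750 fell (21.7%). In 2043 rows (59.2%) the 4 M0 libraries did not overlap the 4 M1 libraries. Of the 2765 tested rows with exons of an opposite gene, 835 rose and 981 fell, with a median log2 fold change of -0.12. Of the 537 rows with nothing annotated opposite to them, 208 rose and 136 fell, with a median of 0.23. The direction of small changes rests on the normalization. When libraries were scaled to their total counts, a choice made after the data were seen, the median log2 fold change of all rows moved from -0.08 to -0.57, a shift of -0.49, and 699 rows rose while 1857 fell, so that 27.3% of calls were increases in place of 48.3%.

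**Figure D1:**
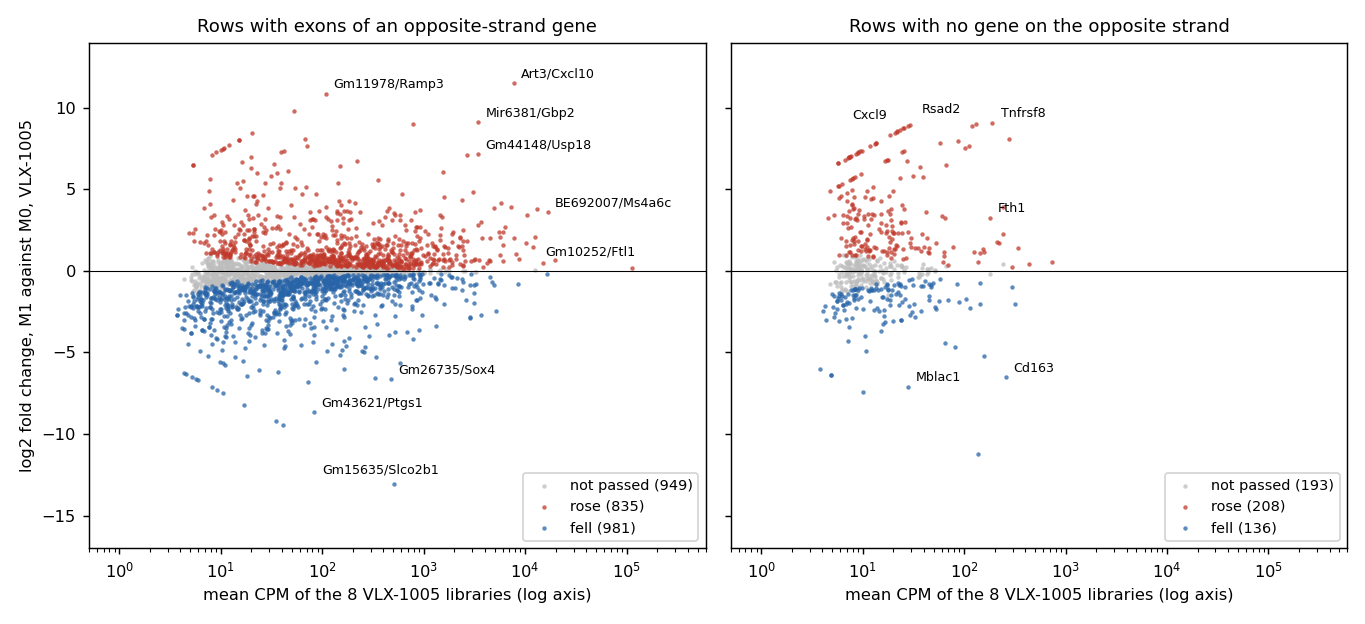
Log2 fold change of M1 against M0 under VLX-1005 (vertical axis) against the mean CPM of the 8 libraries (log axis), 1 point per tested row, for rows with exons of an opposite-strand gene (left) and rows with no opposite gene (right). Red rows rose, blue rows fell and grey rows did not pass. Art3/Cxcl10 lies highest on the left at 11.50, Gm15635/Slco2b1 lowest at a fitted -13.09 that depends on the prior count, and Gm10252/Ftl1 furthest right near 0.

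The sequences shown first lie upstream of RefSeq start sites of genes whose own or opposite row rose. They were picked as examples of each kind of element, since those of the interferon and NF-κB pathways can be read in them, and not by the size of the response. The stretches come from RefSeq (GRCm38.p6), are written 5′ to 3′ on the gene's strand, and have the motif matches in capitals. Those of Cxcl10 (chr5:92348971-92349114, minus strand) and Irf1 (chr11:53769912-53770013, plus strand) hold 2 kinds of element each. Those of Gbp2 (chr3:142620592-142620625, plus strand) and Rsad2 (chr12:26456551-26456584, minus strand) hold an ISRE core. That of Psmb8 (chr17:34198086-34198118, plus strand) holds a GAS. In GENCODE, Psmb8 starts at 34197721 and Gbp2 at 142620602. By that annotation the Psmb8 stretch and most of the Gbp2 stretch lie inside these genes. The last line is the mature miR-6381 (chr3:142623925-142623945, minus strand), with its seed, bases 2 to 8, in capitals. The gene of this miRNA lies within Gbp2 on the other strand, and its row carried the change described below.
Cxcl10: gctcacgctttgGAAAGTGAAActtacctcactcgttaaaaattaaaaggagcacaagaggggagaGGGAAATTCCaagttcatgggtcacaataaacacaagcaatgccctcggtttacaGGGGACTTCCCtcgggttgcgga
Gbp2: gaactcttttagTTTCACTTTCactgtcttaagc
Rsad2: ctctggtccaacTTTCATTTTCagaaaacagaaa
Irf1: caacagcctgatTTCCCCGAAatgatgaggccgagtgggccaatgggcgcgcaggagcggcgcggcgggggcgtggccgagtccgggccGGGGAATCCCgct
Psmb8: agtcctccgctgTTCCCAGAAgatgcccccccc
mmu-miR-6381: cAGGAUGCuggugacaugagu

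The motifs searched on both strands of the 250 bases upstream were the ISRE core (GAAA, any 2 bases, GAAA), the GAS (TTC, any 3 bases, GAA) and the NF-κB consensus. In Cxcl10 the ISRE core started at -213 and NF-κB matches at -159, -104 and -103, of which the last 2 overlap. In Gbp2 and Rsad2 the ISRE core lay at -59 and -120 on the other strand. In Irf1 a GAS lay at -90 and an NF-κB match at -13, and in Psmb8 a GAS lay at -97. The ISRE core was in 2.98% of all 32851 promoters. It was in 16 of 175 promoters (9.14%) of protein-coding rows that rose and have no opposite gene, from 139 of 186 genes matched. It was in 37 of 839 promoters (4.41%) of protein-coding genes opposite to rows that rose (636 of 779 genes matched), and in 13 of 980 (1.33%) of those opposite to rows that fell (753 of 959 matched). For rows that fell and have no opposite gene it was in 5 of 111 (4.50%). The GAS was in 7.02% of all promoters, in 9.14% (rose) and 5.41% (fell) for rows with no opposite gene, and in 4.77% (rose) and 6.53% (fell) for genes opposite to a row. The NF-κB consensus was in 7.25% of all promoters, in 13.1% (rose) and 9.01% (fell) for rows with no opposite gene, and in 68 of 839 (rose, 8.10%) and 103 of 980 (fell) for genes opposite to a row. The ISRE share was thus higher for rises than for falls in both kinds of row, and the other motifs had the reverse order for genes opposite to a row. These shares are descriptions and were not tested.

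Interferon-responsive rows rose, and the largest fitted log2 fold change among all tested rows was that of a row opposite to an IFN-γ-induced chemokine gene. The row Art3/Cxcl10 was at 5.24, 8.18, 2.29 and 5.10 CPM in the M0 libraries and 17143, 13156, 16833 and 14862 CPM in the M1 libraries. Art3 encodes an ADP-ribosyltransferase family member, and Cxcl10 is the IFN-γ-inducible chemokine that draws T cells through CXCR3. Every M1 library was far above every M0 library (log2 fold change 11.50, SE 0.17, adjusted p = 1.92e-23, edgeR). The exons of Art3 (chr5:92331827-92414628, plus strand) and Cxcl10 (chr5:92346638-92348889, minus strand) overlap by 133 bases. The own row of Cxcl10 had no count in M0 and 19.7, 12.5, 20.3 and 27.8 CPM in M1. Both rows of this pair rose, and the own row held far fewer counts, 69 in all.

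The row Mir6381/Gbp2 was at 12.7, 17.9, 8.40 and 9.36 CPM in M0 and 7268, 5938, 6918 and 7459 CPM in M1. Gbp2 is a guanylate-binding protein, an IFN-γ-induced GTPase that attacks the vacuoles of intracellular pathogens. The row rose by 9.13 on the log2 scale (SE 0.14, adjusted p = 1.92e-23, edgeR), although the miRNA gene (chr3:142623860-142623946, minus strand) shares only 24 bases with exons of Gbp2. The libraries were made from polyA RNA, so a count in this row need not come from the mature miRNA shown above. The own row of Gbp2 had 1 count in M0 and was at 45.9, 47.5, 34.6 and 31.2 CPM in M1. Its M1-to-M0 ratio of pooled CPM was 206, with a 95% exact interval of 36.3 to 8179.9 that covers counting error only.

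All 13 tested own rows of the 23 IFN-γ-induced GTPase and chemokine genes rose, and so did the 4 tested rows opposite to them. Their median log2 fold changes were 6.82 and 7.82, against -0.08 over all rows. Own rows with hardly a count in M0, such as Cxcl9 and Gbp5, could enter the test only through M1 and so could only rise. The row Gm17334/Irf1, opposite to a transcription factor that amplifies the IFN-γ response, rose from 248, 231, 186 and 212 CPM to 4912, 3822, 4492 and 4875 CPM (log2 fold change 4.37, SE 0.11). The own row of Irf1 rose by 2.54 (SE 0.50), from a mean of 2.47 to 15.2 CPM. Cxcl9, a sister chemokine of Cxcl10 with no gene on its opposite strand, had no count in M0 and a mean of 58.5 CPM (SD 10.8, n = 4) in M1. Set against a floor of 3 counts over the M0 group, it was at least 100.3-fold higher in M1. Gbp5, which has no opposite gene either, had 2 counts in M0 and a mean of 54.2 CPM in M1.

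All 16 tested own rows of the 40 type I interferon-stimulated genes rose (15 with total-count scaling), with a median of 3.91, and all 8 rows opposite to such genes rose, with a median of 3.03. Own rows near 0 in M0, such as Rsad2 and Ifit2, could likewise enter the test only through M1. Rsad2 (viperin), whose product blocks viral replication, had 2 counts in 1 M0 library, none in the other 3, and was at 323, 261, 257 and 199 CPM in M1. This gave a ratio of 674 with an interval of 186 to 5570.0. Ifit2, which binds viral RNA complexes, rose from a mean of 1.95 to 551 CPM (log2 fold change 8.07, SE 0.32). The row Gm44148/Usp18 rose from 59.9, 37.9, 47.4 and 44.2 CPM to 7649, 6118, 7297 and 6134 CPM (7.16, SE 0.13). Usp18 removes ISG15 from proteins and restrains signaling at the type I interferon receptor, and its own row had 13 counts in M0 and 28 in M1 and was not tested. Parp9 and Dtx3l, partners in DNA repair and interferon signaling that lie head to head, each have the other as opposite gene. The Parp9 row rose from a mean of 163 to 1159 CPM and the Dtx3l row from 73.2 to 557 CPM, and at 2.83 and 2.92 their log2 fold changes were alike.

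Of the 22 IFN-pathway genes chosen by the study on these samples, which is no independent evidence of a direction, 5 had a tested row of their own or opposite to them. The row Dhx58os/Dhx58, opposite to a cytosolic RNA sensor, rose by 3.14 (SE 0.08), from 136, 166, 158 and 149.7 CPM to 1400.2, 1392, 1325 and 1251 CPM. Chrnb2/Adar rose by 2.05 (SE 0.06), and Adar edits adenosines in double-stranded RNA. Rnaseh2c, a subunit of ribonuclease H2 whose row lies opposite to the acetyltransferase gene Kat5, rose by 0.44 (SE 0.08) with TMM and had -0.05 with total-count scaling. Of the own rows, Nono, an RNA-binding protein gene, rose by 1.16 (SE 0.27), and Ddx3x, a helicase gene, fell by 0.75 (SE 0.25) but did not pass with DESeq2 on the 8 VLX-1005 libraries.

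**Figure D2:**
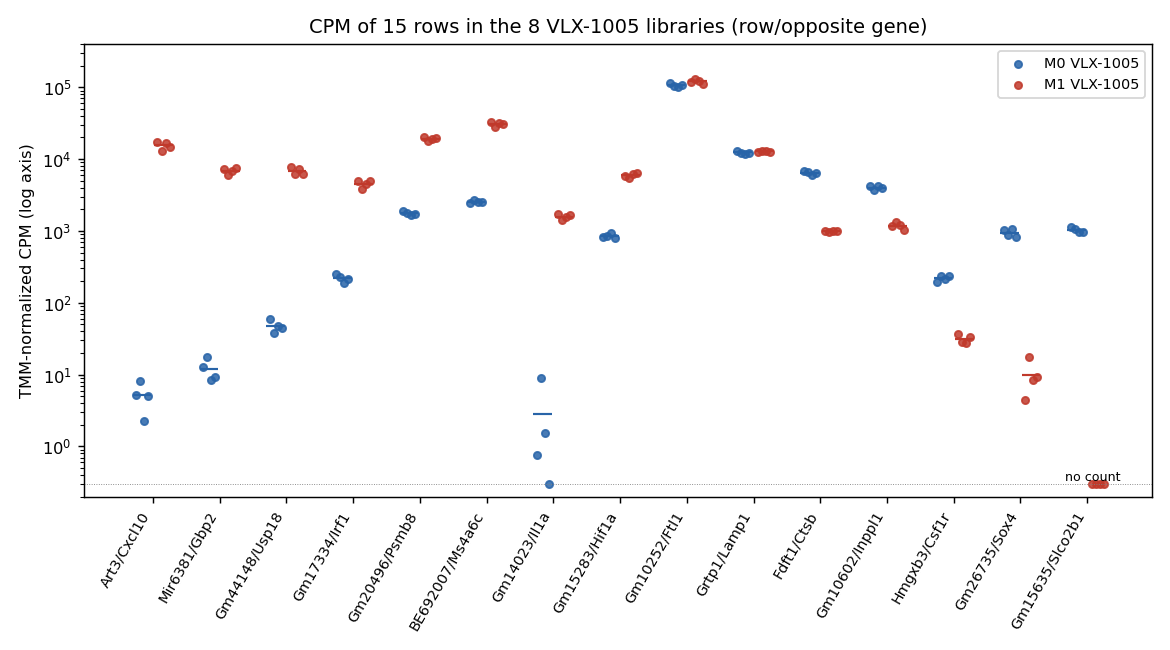
TMM-normalized CPM (log axis) of 15 rows in the 4 M0 VLX-1005 (blue) and 4 M1 VLX-1005 (red) libraries, 1 point per library and a line at the mean, with each row named with the opposite gene of largest overlap. Art3/Cxcl10 lies between 2.29 and 8.18 CPM in M0 and between 13156 and 17143 CPM in M1, Gm15635/Slco2b1 has no count in M1 (points on the dotted line), and the M0 and M1 libraries of Grtp1/Lamp1 overlap.

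Rows for antigen presentation rose together. In the MHC class I list, 9 of 10 own rows (8 with total-count scaling) and 8 of 8 opposite rows rose, with medians of 2.84 and 3.66. The row Gm20496, opposite to the immunoproteasome subunit gene Psmb8 and the peptide transporter gene Tap2, rose from 1915, 1794, 1658 and 1734 CPM to 20502, 17662, 18997 and 19377 CPM (3.43, SE 0.07). Gm15821/Tap2 rose from a mean of 884 to 13519.7 CPM (3.93, SE 0.06). The own row of Psmb8 had 2 counts in M0 and 26 in M1, that of Tap2 had 4 and 30, and neither was tested. Tap1, which pairs with Tap2 in the transporter, and Psmb9, another immunoproteasome subunit gene, lie opposite to each other, and their rows rose by 4.69 (SE 0.31) and 3.08 (SE 0.10). Gm19412/Tapbp, opposite to tapasin, which loads peptide onto class I, rose by 2.71 (SE 0.06), and the own row of Tapbp rose by 0.91 (SE 0.25). For MHC class II, 3 of 3 opposite rows rose, and 2 with total-count scaling. Dexi/Ciita, opposite to the master activator of class II genes, went from 3.74, 0.744, 1.53 and 1.70 CPM to 42.7, 32.5, 60.9 and 67.1 CPM (4.63, SE 0.38). The only tested own row of that list, Ctss, a cathepsin, had 0.29 and did not pass.

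Inflammatory mediators showed the same direction, with several of the best-known cytokines hardly counted. Of 10 own rows 9 rose, with a median of 7.20, and 4 of 4 opposite rows rose. Own rows with hardly a count in M0, such as Ptgs2, Nos2 and Acod1, could be tested only because they were high in M1. The row Gm14023/Il1a was at 0.749, 8.93, 1.53 and 0 CPM in M0 and 1714, 1404, 1541 and 1658 CPM in M1 (9.03, SE 0.26). Il1a encodes interleukin-1α, and its own row had 3 counts in M0 and 11 in M1. Ptgs2 (COX-2), which makes prostaglandin H2, had no count in M0 and 49.2, 51.3, 52.6 and 52.0 CPM in M1, at least 88.2-fold more. Nos2, the inducible nitric oxide synthase that defines M1 macrophages, had no count in M0 and 52 in M1. Acod1, which makes itaconate, had 1 count in M0 and a mean of 51.3 CPM in M1. By contrast, the own rows of Tnf and Il6 had 1 and 2 counts in the 4 M1 libraries and none in M0, and neither has an opposite gene. Since reads may have been assigned to the other strand, whether Tnf and Il6 were expressed cannot be read from them.

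The LPS and NF-κB pathway rows rose more moderately. Myd88, the adaptor of most Toll-like receptors, rose by 0.98 (SE 0.26) in its own row, which did not pass with total-count scaling, and by 1.74 (SE 0.07) in the row opposite to it, Acaa1a. Ikbkg, the regulatory subunit of the IκB kinase, and G6pdx, which supplies NADPH, overlap by 418 bases, and their rows rose, that of Ikbkg from a mean of 678 to 1912 CPM and that of G6pdx by 2.57 (SE 0.12). All 6 rows opposite to NF-κB pathway genes rose, among them Psd/Nfkb2 (2.51, SE 0.09) and Gm16175/Bcl3 (2.03, SE 0.13). Irak4, a kinase below Myd88, rose by 0.41 (SE 0.07) with TMM, and had -0.08 with total-count scaling. Negative regulators rose as well in 4 of 5 opposite rows and 2 of 4 own rows. Gm17041/Cish, opposite to a STAT5-induced inhibitor of cytokine signaling, rose by 5.38 (SE 0.53).

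Cd274, the gene of the checkpoint ligand PD-L1, was at 0, 0, 1.53 and 0 CPM in M0 and 142, 161, 119 and 118 CPM in M1, in a row opposite to AC119228.1. Its 2 counts in M0, both in 1 library, gave a ratio of 348 with an interval of 95.9 to 2886. Cd38, an NAD-consuming ectoenzyme, rose from 1 count to a mean of 22.3 CPM, and Vsir, which encodes the checkpoint VISTA, fell by 1.80 (SE 0.58). Mouse Alox15 had no count in any of the 8 libraries, and mouse Alox12 was at 0.560 CPM in M0 and 2.05 CPM in M1 and was not tested. Neither has an opposite gene. Since reads may have been assigned to the other strand, whether Alox15 and Alox12 were expressed cannot be read from these rows.

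**Figure D3:**
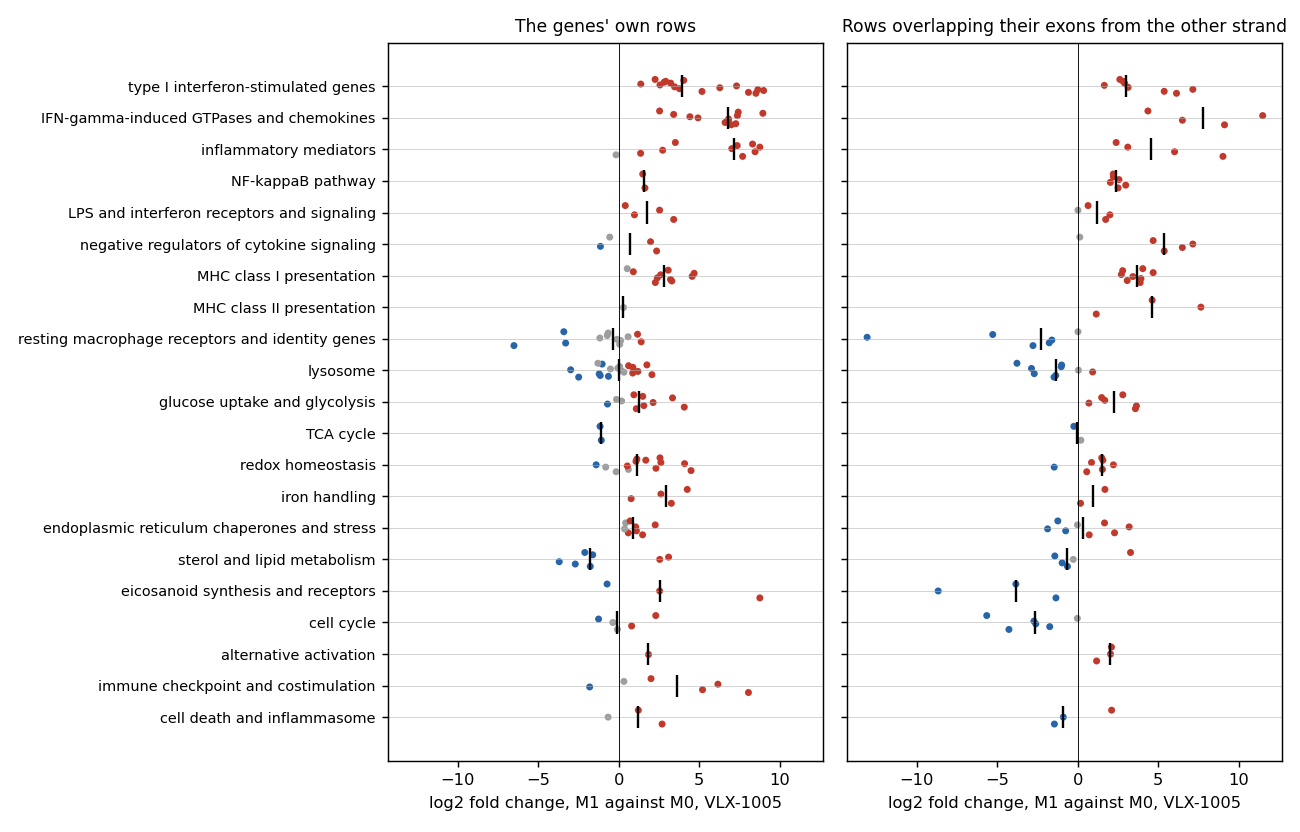
Log2 fold change of M1 against M0 under VLX-1005 for the tested rows of 21 gene lists, for the genes' own rows (left) and for rows overlapping their exons from the opposite strand (right). Points are rows (red rose, blue fell, grey did not pass) and black bars are medians. All interferon points lie right of 0 in both panels, while resting macrophage rows have a median of -0.38 on the left and -2.27 on the right.

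Of the resting macrophage list, 5 of 6 rows opposite to the named genes fell, and 3 of 12 own rows, where 33.8% of all tested rows fell. The row Gm15635/Slco2b1 was at 1117, 1051, 958 and 959 CPM in M0 and had no count in any M1 library, at least 1165-fold lower by the floor of 3 counts over the group. Slco2b1 encodes an organic anion transporter, and its own row had 8 counts, all in M0. Tmem255b/Gas6, opposite to a ligand of the receptors that clear apoptotic cells, fell by 5.28 (SE 0.24), from 667, 719, 613 and 621 CPM to 9.85, 32.5, 11.9 and 13.9 CPM. Cd163, the hemoglobin scavenger receptor, has no opposite gene and fell from 517, 572, 493 and 487 CPM to 4.38, 6.25, 8.36 and 3.47 CPM (-6.51, SE 0.18). Cx3cr1, the fractalkine receptor, fell by 3.30 (SE 0.50). The opposite rows had a median of -2.27, and a row empty in M1, such as Gm15635, could enter the test only through M0. Of the 12 own rows 3 fell, 2 rose and 7 did not pass (8 fell and 1 rose with total-count scaling), and Adgre1, which encodes F4/80, was among those that rose (1.40, SE 0.24).

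At the M-CSF receptor gene the rows of the strands disagreed. The row Hmgxb3/Csf1r fell from 193, 235, 211 and 237 CPM to 37.2, 28.8, 27.5 and 33.5 CPM (-2.78, SE 0.13), with no overlap. The own row of Csf1r was at 210.4, 213, 198 and 219 CPM in M0 and 252, 200.1, 201 and 225 CPM in M1, and the groups overlap (0.07, SE 0.09, adjusted p = 0.548, edgeR). With total-count scaling the own row had -0.43 and passed. The exons of the pair overlap by 873 bases. Stab1, a scavenger receptor, behaved likewise, with 0.12 (SE 0.09) in its own row and -1.60 (SE 0.10) in Nt5dc2, the row opposite to it. Its own row had -0.37 with total-count scaling and passed there.

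Other rows also had large increases. Gm26584/Slc7a2, opposite to an arginine transporter gene, rose from a mean of 38.7 CPM to 5630.4, 4585, 5184 and 5838 CPM (7.10, SE 0.10). Gm37787/Slamf7, opposite to a receptor gene of immune cells, rose from a mean of 46.1 to 3053 CPM (6.05, SE 0.12), and Gm29233/Thbs1, opposite to thrombospondin 1, from 211 to 5954 CPM (4.82, SE 0.13). Gm11978/Ramp3, opposite to a modulator of calcitonin-family receptors, had no count in M0 and 177, 238, 245 and 212 CPM in M1, at least 373-fold more. Among rows with the most counts in M1, BE692007/Ms4a6c rose from 2475, 2727, 2490.2 and 2530.0 CPM to 32853, 28109, 31682 and 30954 CPM (3.60, SE 0.07). A930037H05Rik/Rnf213, opposite to an interferon-inducible ubiquitin ligase gene, rose by 3.80 (SE 0.13). Tnfrsf8, which encodes CD30 and has no opposite gene, had 3 counts in M0 and a mean of 379 CPM in M1.

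Other rows outside that list also fell. Gm26735/Sox4 fell from 1026, 878, 1061 and 828 CPM to 4.38, 17.5, 8.36 and 9.25 CPM (-6.60, SE 0.18), and Sox4 is a developmental transcription factor. Ccdc152/Selenop, opposite to the selenium transport protein gene, fell from 76.4, 75.9, 71.0 and 68.9 CPM to 0, 2.50, 0 and 1.16 CPM, a ratio of 83.3 with an interval of 28.3 to 406. Gm12523/Sort1, opposite to the sorting receptor sortilin, had no count in M1 and was at least 79.4-fold lower. Hddc3, whose row overlaps the Golgi mannosidase gene Man2a2, fell by 6.82 (SE 0.27). Gm38248, with no opposite gene, was uneven within M0, at 21.7, 568, 469 and 39.1 CPM, and had no count in M1. It fell by edgeR's test and missed the threshold with limma-voom, at an adjusted p of 0.0846.

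Eicosanoid genes moved in both directions. Opposite to Ptgs1 (COX-1), the row Gm43621 was at 177, 175, 164 and 151 CPM in M0 and had 1 count in M1, a ratio of 572 in favor of M0 with an interval of 102 to 22625. Gm26542, opposite to the leukotriene C4 synthase gene Ltc4s and to Maml1, fell by 3.84 (SE 0.28). Gm43621 and Gm26542 had few counts in M1 and could enter the test only through M0. Gm19719/Alox5ap, opposite to the 5-lipoxygenase-activating protein gene, fell from 4773, 4603, 3972 and 4504 CPM to 1716, 2156, 1656 and 1474 CPM (-1.35, SE 0.10). Thus 3 of 3 opposite rows fell, while Ptgs2 and the thromboxane synthase gene Tbxas1 (2.55, SE 0.69) rose in their own rows and the prostaglandin E2 receptor gene Ptger4 fell by 0.72 (SE 0.14). The rise of Tbxas1 missed the threshold with limma-voom, at an adjusted p of 0.0933.

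In the sterol list 5 of 7 own rows and 3 of 5 opposite rows fell. Of all tested rows, 31.5% rose and 33.8% fell. In the lysosome list the opposite rows fell more often than they rose. As many of its own rows rose as fell. Their summed counts fell, but most of these counts lay in the Ctsa row, which overlaps Pltp and Neurl2. The Ctsa row fell from a mean of 8833 CPM in M0 to 1576 CPM in M1 (-2.49, SE 0.09). Fdft1, the squalene synthase gene, whose row lies opposite to the protease gene Ctsb, fell from 6780.0, 6571, 6007 and 6348 CPM to 994, 968, 999 and 998 CPM (-2.70, SE 0.07). It belongs to both lists, as own row of the sterol list and as opposite row of the lysosome list. The Ctsb row fell by 0.64 (SE 0.21). Of the rows opposite to lysosome genes 7 of 9 fell, and of 18 own rows 6 rose, 6 fell and 6 did not pass (2 rose and 9 fell with total-count scaling). Grtp1/Lamp1, opposite to the gene of an abundant lysosomal membrane protein, was at 11916 to 12956 CPM in M0 and 12490.4 to 13065 CPM in M1 (0.05, SE 0.05) and had -0.44 with total-count scaling. In the sterol list, Sqle, which makes the squalene epoxide, fell by 1.77 (SE 0.16). Gm26902/Ch25h, opposite to the interferon-induced enzyme that makes 25-hydroxycholesterol, rose by 3.29 (SE 0.21).

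Glycolytic and redox rows were mostly higher with TMM, where 31.5% of all tested rows rose. Fam57b/Aldoa, which share only 25 bases of exon, rose from 5255, 4883, 4454 and 4889.9 CPM to 16404, 15981, 14927 and 15452 CPM (1.69, SE 0.06), and Aldoa is the glycolytic aldolase of most tissues. Gm15283/Hif1a, opposite to the transcription factor that drives glycolysis in stimulated macrophages, rose from a mean of 849 to 5944 CPM (2.81, SE 0.07). Of the glycolysis list 7 of 10 own rows and 6 of 6 opposite rows rose (5 and 6 with total-count scaling), and Pfkp fell (-0.69, SE 0.13). In the redox list 9 of 13 own rows and 6 of 7 opposite rows rose, and 6 and 4 with total-count scaling. Gm16754/Keap1, opposite to the sensor that holds NRF2 in check, rose by 2.22 (SE 0.07), and Gtf2ird2/Ncf1, opposite to an NADPH oxidase subunit gene, by 1.57 (SE 0.07). The ferritin heavy chain gene Fth1, with no opposite gene, rose from 31.5, 26.8, 34.4 and 43.4 CPM to 303, 274, 367 and 369 CPM (3.27, SE 0.16). The row with most counts, Gm10252/Ftl1, opposite to ferritin light chain, rose by 0.18 (SE 0.06, adjusted p = 0.0140, edgeR) with TMM and fell by 0.31 with total-count scaling. The row did not pass without M1 VLX-1005 2 or with upper quartile normalization. Nor did it pass with no filter on low counts or with a mean of at least 50 counts required. Its share of all counts was 13.2%, 12.2%, 11.9% and 12.5% in M0 and 9.65%, 11.1%, 10.1% and 9.41% in M1 (two-sided exact permutation test, p = 0.02857, the smallest that its 70 labellings allow).

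In the cell cycle list, rows opposite to the named genes fell and the own rows did not move together. Gm44985/Plk1, opposite to a mitotic kinase gene, had 105 counts in M0 and 1 in M1, a ratio of 69.5 with an interval of 12.2 to 2769. Exosc9/Ccna2, opposite to cyclin A, fell by 4.27 (SE 0.50). In all, 5 of 6 opposite rows fell, with a median of -2.66, where 33.8% of all tested rows fell. Rows nearly empty in M1, such as Gm44985 and Exosc9, could enter the test only through M0 and so could only fall. Of 5 own rows 2 rose, 1 fell and 2 did not pass, with a median of -0.08. LTO1/Ccnd1, opposite to cyclin D1, fell by 1.74 (SE 0.08), whereas the own row of Ccnd1 rose by 0.81 (SE 0.13).

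Across the genome, where both rows of a pair changed, they went the same way more often than opposite ways. In 679 pairs both rows could be tested. Both rows changed in the same direction in 201 pairs (101 up and 100 down), in opposite directions in 94, and only 1 row passed in 276. Of all rows tested, 65.3% passed. The 2 log2 fold changes had the same sign in 400 pairs and were over 1 apart in 303, with a median absolute difference of 0.88. Among 250 pairs of a protein-coding row and another kind of row, the other row held more counts in 209. The median ratio of CPM between the fuller and the sparser row of a pair was 6.30. Numa1, a spindle protein gene, and Il18bp, which encodes a secreted inhibitor of interleukin-18, share 80 bases of exon. The Numa1 row rose from 37.4, 41.7, 50.4 and 52.7 CPM to 1206, 1147, 1173 and 1185 CPM (4.69, SE 0.10). The Il18bp row fell from 108, 129, 116 and 109 CPM to 45.9, 58.8, 66.9 and 39.3 CPM (-1.14, SE 0.18). Erp29, an endoplasmic reticulum chaperone gene, rose by 2.27 (SE 0.08), while Tmem116 and Naa25, which overlap it, fell by 0.74 (SE 0.06) and 1.87 (SE 0.25). Of the 2281 tested rows with a single opposite gene, 952 overlapped it tail to tail, 613 head to head and 716 were nested, and the opposite gene was protein coding in 2026.

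**Figure D4:**
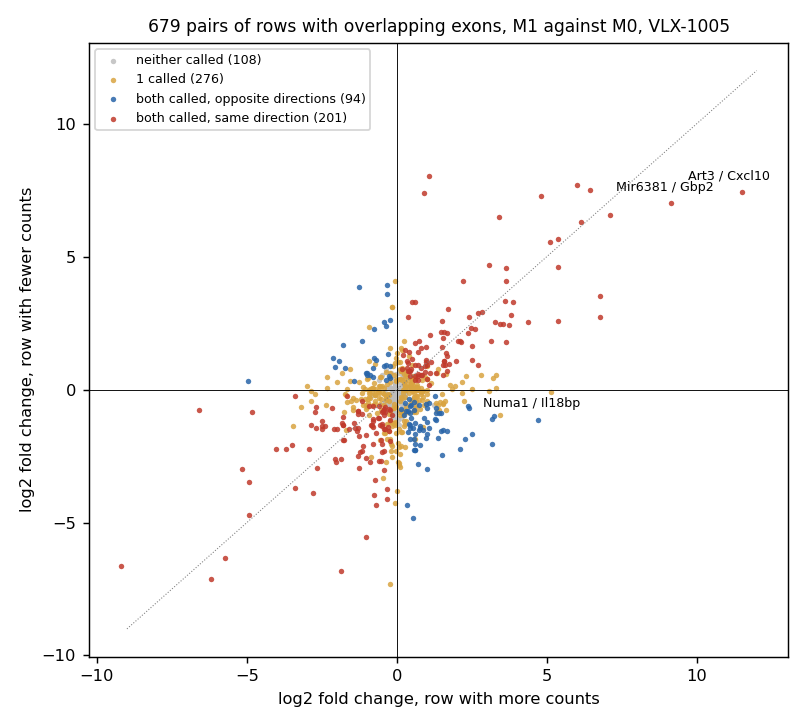
Log2 fold change (M1 against M0, VLX-1005) of the row with more counts (horizontal axis) and of the row with fewer counts (vertical axis) in 679 pairs of rows with overlapping exons on opposite strands. Red pairs were called in the same direction (201) and blue pairs in opposite directions (94). The dotted line marks equal change, and Numa1 / Il18bp lies at 4.69 and -1.14.

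Of 2202 rows annotated as miRNA genes, 29 were tested, 28 of them with exons of an opposite gene, and 12 rose and 8 fell, where 31.5% and 33.8% of all rows did. Besides Mir6381, Mir6244/Zc3h12c, opposite to an RNase gene of the regnase family, rose from 28.5, 39.4, 32.1 and 44.2 CPM to 174, 139, 183 and 183 CPM (2.24, SE 0.18). Mir130c/Kdelc2 fell from 93.6, 126, 83.3 and 114 CPM to 14.2, 13.8, 19.1 and 6.94 CPM (-2.94, SE 0.25). Gm22953/Serf2 held the most counts of these rows in M0, at a mean of 2154 CPM, and rose by 0.33 (SE 0.09) with TMM but had -0.17 with total-count scaling.

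Marker lists of cell types were read in the genes' own rows. Of 12 macrophage markers 7 own rows were tested, and Lyz2, which encodes lysozyme, fell from a mean of 70.6 to 20.4 CPM (-1.78, SE 0.20) while Cd14, the LPS co-receptor gene, rose from 2.05 to 23.9 CPM. Of the B cell, NK cell, neutrophil, mast cell and fibroblast lists no row was tested, and 6 of 8, 6 of 7, 7 of 10, 5 of 7 and 6 of 10 of their genes had no count. Own rows were nearly empty even for the 32 abundant transcripts. A lack of counts in own rows therefore does not show that these cells were absent. The T cell list had counts in Foxp3 and Cd247, whose rows lie opposite to Ccdc22 and Pou2f1 among others, and 8 of its 13 genes had none. Its summed level, scaled to total counts, was 811 to 888 CPM in M0 and 333 to 395 CPM in M1. The dendritic cell marker Xcr1, with no opposite gene, was at 0.749, 2.23, 0 and 0.851 CPM in M0 and 228, 204, 208 and 167 CPM in M1 (7.54, SE 0.30), and the other 8 genes of its list were not tested. The part of other cell types in these results was not tested.

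The same transition without the inhibitor was compared by the difference of the 2 log2 fold changes. No row passed (0 of 3453, 0% called, edgeR). At an unadjusted p under 0.05 there were 148 rows (4.29%) with edgeR, 107 with DESeq2 and 133 with limma-voom, and neither of those tools called a row after adjustment. The smallest unadjusted p was that of Gm10602, opposite to the folate receptor gene Folr2 and the lipid phosphatase gene Inppl1. It was at 4162, 3694, 4249 and 3957 CPM in M0 and 1153, 1346, 1200.4 and 1018 CPM in M1 under VLX-1005. Its log2 fold change was -1.77 under VLX-1005 and -2.18 under vehicle. These differed by 0.42 (SE 0.10, adjusted p = 1, edgeR). Dnajb13/Ucp2, opposite to a mitochondrial uncoupling protein gene, had -4.84 under VLX-1005 and -3.92 under vehicle, which is -0.92 apart (SE 0.25). Art3/Cxcl10 had 11.50 and 11.71, and Gm15635/Slco2b1 had -13.09 and -13.08, fitted values that depend on the prior count because its M1 libraries are at 0. The median SE of the difference was 0.34 over all rows (edgeR).

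**Figure D5:**
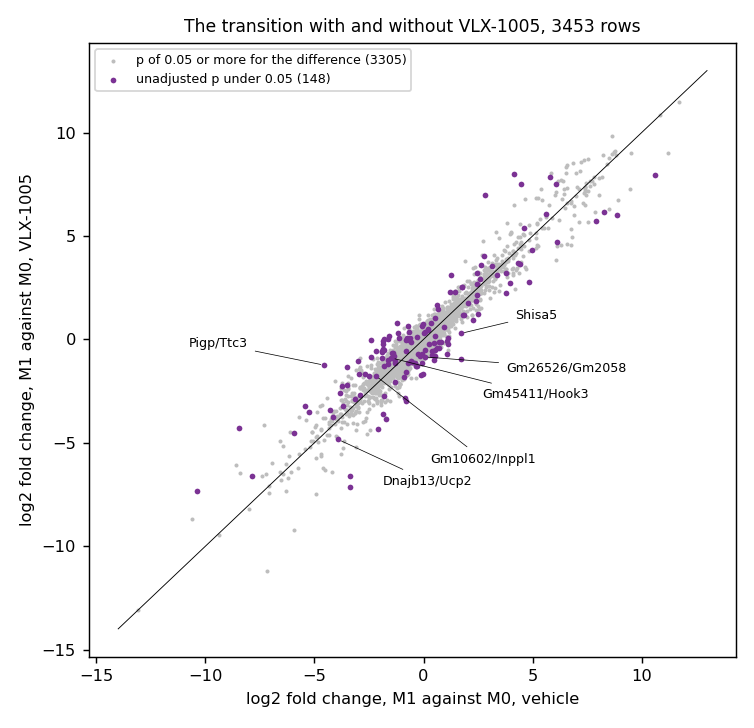
Log2 fold change of M1 against M0 with VLX-1005 (vertical axis) and with vehicle (horizontal axis) for 3453 rows. The line marks equal change, and the 148 rows with an unadjusted p under 0.05 for the difference are purple. None passed after adjustment, and Gm10602 has -1.77 and -2.18.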

How the data were processed

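RNA-seq was measured in 16 libraries of BMDMs, 4 per group, and the 8 VLX-1005 libraries carry the comparison. The authors deposited raw counts per gene, made with HISAT2 on mm10 and HTSeq in Galaxy from strand-specific polyA libraries, and Trimmomatic, FastQC and DESeq2 are further tools in the submitters' processing notes. The sources used here give neither tool versions nor the strand used for counting. The table had 48440 rows, of which 30671 had no count, and 0 columns belonged to no sample. GENCODE mouse release 21 (mm10) placed 48058 rows, and the 382 others held 0.471% of the counts. An opposite gene shared at least 1 base of exon. Replicates differed beyond counting noise, with 2.43 to 5.39 as chi-square over its degrees of freedom, and each was kept as a sample of its own.

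Counts were fitted with edgeR 4.0.16 (R 4.3.3) for all 16 libraries in a single quasi-likelihood model with TMM normalization and filterByExpr, which kept 3453 rows, and p-values were adjusted by Benjamini-Hochberg. A row could pass this filter through a single group in which it was high. The threshold was an adjusted p of 0.05. The difference between transitions was an interaction contrast. DESeq2 1.42.0 and limma 3.58.1 (voom), other filters, scalings, thresholds and overlaps, the replicate number as a block and leaving out each library were alternatives. The fitting step was also run on simulated data with 200 known changes. It recovered 20 of 50 tested changes of 1.5-fold, 30 of 45 of 2-fold, 43 of 46 of 4-fold and 50 of 50 of 8-fold. There were 4 false calls among 3039 unchanged rows. Far fewer rows changed there than in the data, with as many up as down, so it does not test the normalization. Intervals for ratios with 1 to 3 counts in a group are exact at 95%, and the floor of 3 counts is over the group. Both cover counting error only.

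The genes and lists were chosen with earlier results of these data known. Rows were named by size of change (8 up and 8 down with an opposite gene, 4 and 4 without, at 20 CPM or more), by abundance within each list (up to 3), among pairs by CPM (4), for the difference between transitions by p (6), by counts (5), and as fixed genes (Alox15, Alox12, Cd274). Values of other rows were added after they were seen. Promoter and miRNA sequences are from RefSeq (GRCm38.p6). Figures were drawn with matplotlib 3.10.9.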

Additional observations from a re-analysis of the deposited data

Results flagged for a closer look

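In 114 groups of 4 libraries, covering 50 rows and 7 shares, 9 had 1 library whose gap to the nearest of the others exceeded Dixon's 95% critical share of the group's range. For normally distributed values, chance alone gives such a gap in about 1 in 20 groups. Near-empty rows are not of this kind, since any count in 1 library with 0 in the others exceeds the limit. Groups with no range are among the 114 but could not be flagged. The 9 can therefore not be set against that share. M0 VLX-1005 3 was at 1.53 CPM for Cd274, where the others had no count, and at 3.06 CPM for Ms4a6c, where the others lay between 0.744 and 0.851 CPM. For Erp29, M0 VLX-1005 3 was at 347 CPM against 382 to 386 CPM in the others, and M1 VLX-1005 2 at 1572 CPM against 1871 to 1909 CPM. M1 VLX-1005 2 was also apart for Mblac1, at 1.25 CPM with no count in the others, and for Pigp, at 11.3 CPM against 2.39 to 3.47 CPM. M1 VLX-1005 1 was at 1.09 CPM for Gm43621, where the others had no count. M0 VLX-1005 1 held all M0 counts of Rsad2, at 1.50 CPM, and the others were at 0. M0 VLX-1005 4 was at 0 for Tnfrsf8, with 0.744 to 0.764 CPM in the others. Except for Erp29 and Pigp, these values rest on 4 counts or fewer.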

How the results depend on the processing

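Leaving out each library in turn gave 2185 to 2329 changed rows (1071 to 1151 higher and 1110 to 1190 lower in M1), 189 to 214 pairs changed in the same direction and 76 to 100 in opposite directions, 220 to 231 called rows in the lists, a rise of 0.479 to 0.599 percentage points in the share of exon-overlapped rows (0.545 with all libraries), and 0 to 0 rows that differed between the transitions. Requiring a mean of 50 counts gave 1262 changed rows (590 higher and 672 lower), 60 and 41 pairs and 107 list rows. Testing only rows with no opposite gene gave 353 (203 and 150), from fewer rows tested. A fold change over 2 with an adjusted p under 0.05 gave 1414 (664 and 750) with 99 and 22 pairs, and with an unadjusted p 1429 (665 and 764) with 100 and 22 pairs and 73 rows that differed between the transitions. An adjusted p under 0.01 left 58 pairs in opposite directions. Pairs in which each row overlaps exactly 1 gene were 107 and 45. Total-count scaling gave 699 and 1857 rows and 306 pairs in the same direction. It turned Irak4 to -0.083, Gm10252 to -0.313, Rnaseh2c to -0.048, Cog5 to -0.347, Pdxdc1 to -0.136, 1500002F19Rik to -0.152, Grtp1 to -0.443, Csf1r to -0.428, Stab1 to -0.371 and Gm22953 to -0.166 on the log2 scale. Settings other than leaving out 1 library, some of them on the VLX-1005 libraries only, gave 2065 values of named rows. Of these, 2017 kept direction and call, 34 lost the call, 4 gained it and 10 turned. Without 1 library, 41 of 3152 lost the call and 2 gained it.

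Same-numbered M0 and M1 VLX-1005 libraries did not deviate together (correlations -0.05 to 0.04, and 1 of 4 was highest with its own number). Between M1 vehicle and M1 VLX-1005, same-numbered libraries had 0.07, 0.06, 0.04 and 0.09, and the others -0.06 to 0.04. Between M0 vehicle and M0 VLX-1005, same-numbered libraries had 0.08, 0.04, 0.46 and 0.28, and the others -0.35 to 0.28. Whether the numbers pair the libraries cannot be told from these correlations. With the replicate number as a block there were 2293 changed rows (1105 and 1188), 199 and 104 pairs, 222 list rows and 0 rows that differed between the transitions.

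Libraries held 939584 to 1158095 counts, and 1678 of the 3453 tested rows had a mean of 50 counts or more (rows with fewer counts have wider errors).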

Other observations

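Genes of the endoplasmic reticulum, which folds secreted and membrane proteins, were not described above as a group. Of 8 own rows 6 rose (4 with total-count scaling), with a median log2 fold change of 0.89, and of 8 opposite rows 4 rose and 3 fell, with a median of 0.35 that was -0.14 with total-count scaling. Of the alternative activation list, which marks macrophages exposed to IL-4, only 2 genes had a tested row. The own row of Tgm2, a transglutaminase gene, rose by 1.81, and so did both rows opposite to it, Gm20412 by 2.10 and Rprd1b by 2.04. Gm44876, opposite to the IL-4 receptor gene Il4ra, rose by 1.18. Mitochondrial rows took 1.50%, 1.34%, 1.63% and 1.50% of counts in the M0 libraries and 0.650%, 0.549%, 0.688% and 0.813% in the M1 libraries, with no overlap. Of the TCA cycle list, the 2 tested own rows fell, Mdh1 by 1.08 and Pdha1 by 1.16, and of 2 opposite rows 1 fell, with a median of -0.02. Mdh1 lost its call in 6 of 24 other settings (no filter on low counts, DESeq2 on all 16 libraries, and without M0 VLX-1005 1, M0 VLX-1005 2, M1 VLX-1005 1 or M1 VLX-1005 2). Pdha1 lost it without M1 VLX-1005 4.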
